A study of Mus musculus with 9 samples.

Results

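The calcium buffer and sensor genes described here are Pvalb, Calb1, Calb2, Calm2, Calm3, Hpcal1, Ncald and Vsnl1, and their members on the array are the probe sets that the platform annotation gives to one of these symbols alone. There were 12 such probe sets among 45037 that are not controls, and they stood for 6 of the 8 genes. Calm2 and Calm3, which encode calmodulin, had no such probe set and were not analysed here. Signal was read on 9 Affymetrix mouse arrays, 3 from laser-captured motor neurons of SOD1-mutant mice, 3 from laser-captured motor neurons of wild-type mice and 3 from whole spinal cord of wild-type mice. SOD1 encodes a cytosolic superoxide dismutase, and mutant forms of it cause inherited amyotrophic lateral sclerosis (ALS). Laser capture lifts chosen cells from a tissue section. The labels do not give the SOD1 allele, its promoter, the strain or the age of the mice, nor whether arrays share an animal. The p-values below therefore measure the spread between these arrays, part of which may be technical. All sample titles share a code, D28, that no label explains. The source field names ventral cord while the descriptions name the total cord.

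All 6 measured genes encode proteins that bind calcium through EF-hands, a helix-loop-helix fold. Parvalbumin (Pvalb), calbindin D28k (Calb1) and calretinin (Calb2) are mobile buffers that take up calcium entering through channels, and in the spinal cord they are classical markers of interneuron and sensory neuron classes. Visinin-like 1 (Vsnl1), hippocalcin-like 1 (Hpcal1) and neurocalcin delta (Ncald) belong to the visinin-like branch of the neuronal calcium sensors, which carry a myristoyl group and move to membranes when they bind calcium. Spinal motor neurons, which are lost in ALS, are known for low levels of parvalbumin and calbindin protein, unlike the oculomotor neurons that are largely spared. In the mouse genome (GRCm38.p6), Hpcal1 and Vsnl1 lie on chromosome 12, Pvalb and Ncald on chromosome 15, Calb1 on chromosome 4 and Calb2 on chromosome 8.

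Promoter sequence was listed for 3 of the 6 measured genes, and the 250 bases before the start at each gene's 5′ end are shown because they pair a gene that was higher in captured motor neurons (Hpcal1) with its relative that was lower (Vsnl1), and add Pvalb, the buffer with the least settled difference. They come from RefSeq on build GRCm38.p6, at chr12:17690559-17690808 on the plus strand for Hpcal1, chr12:11436579-11436828 on the minus strand for Vsnl1 and chr15:78206401-78206650 on the minus strand for Pvalb. Capitals mark matches, on either strand, to TATAAA (the TATA box), CCAAT (the CCAAT box), GGGCGG (the GC box), CANNTG (the E-box) and TGACGTCA (the cyclic AMP response element).
Hpcal1: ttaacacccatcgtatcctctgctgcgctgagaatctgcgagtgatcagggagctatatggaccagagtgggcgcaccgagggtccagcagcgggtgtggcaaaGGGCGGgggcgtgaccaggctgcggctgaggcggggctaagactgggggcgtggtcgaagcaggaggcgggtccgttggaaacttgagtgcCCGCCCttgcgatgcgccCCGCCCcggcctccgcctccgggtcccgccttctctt
Vsnl1: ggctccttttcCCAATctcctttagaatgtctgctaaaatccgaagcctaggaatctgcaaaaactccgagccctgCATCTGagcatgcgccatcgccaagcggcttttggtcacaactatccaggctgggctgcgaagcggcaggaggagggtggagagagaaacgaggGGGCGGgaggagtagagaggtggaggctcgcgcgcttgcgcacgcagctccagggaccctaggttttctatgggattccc
Pvalb: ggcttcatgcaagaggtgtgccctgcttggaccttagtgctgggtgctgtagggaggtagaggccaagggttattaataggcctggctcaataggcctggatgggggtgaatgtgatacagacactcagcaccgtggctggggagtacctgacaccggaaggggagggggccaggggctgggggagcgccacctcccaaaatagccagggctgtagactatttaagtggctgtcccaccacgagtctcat
Hpcal1 held 3 GC boxes, which begin at positions -146, -55 and -37, counted from the listed start with -1 just before it. Vsnl1 held 1 GC box at -80, 1 CCAAT box at -239 and 1 E-box at -174. Vsnl1 and Pvalb each have 2 starts listed, and the outermost was used. Pvalb held none of the 5 motifs in this window. The matches did not overlap. Over all 32851 promoters of this length, 32.7% held a GC box, 33.8% a CCAAT box, 66.2% an E-box, 12.4% a TATA box and 1.55% a cyclic AMP response element. GC content was 66.8% for Hpcal1, 58% for Vsnl1 and 58.4% for Pvalb, against a median of 52.4% over all promoters.

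The captured arrays carried motor neuron transcripts, some glial marker signal and an altered balance between the ends of control transcripts. Of 11 motor neuron markers tested, 10 were called higher in wild-type motor neurons against cord, where 31.1% of all genes were. Their summed signal was 440506 to 450264 in wild-type motor neurons against 84004 to 95425 in cord. The sum was 399917 to 453239 in SOD1-mutant motor neurons. At an equal trimmed mean of 2500, array medians lay at 274 to 366 for SOD1-mutant motor neurons, at 269 to 313 for wild-type motor neurons and at 556 to 583 for cord. Control probe sets at the 3′ end of Gapdh exceeded those at its 5′ end by a log2 ratio of 4.33 to 4.63 on SOD1-mutant motor neuron arrays, 3.65 to 4.52 on wild-type ones and -0.29 to -0.26 on cord arrays. For Actb the ratio was 4.66 to 5.84, 4.17 to 4.97 and 0.64 to 0.69 on the arrays of the same groups. These ratios and the cord-to-neuron contrast moved together, and their part in the differences below was not tested.

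**Figure D1:**
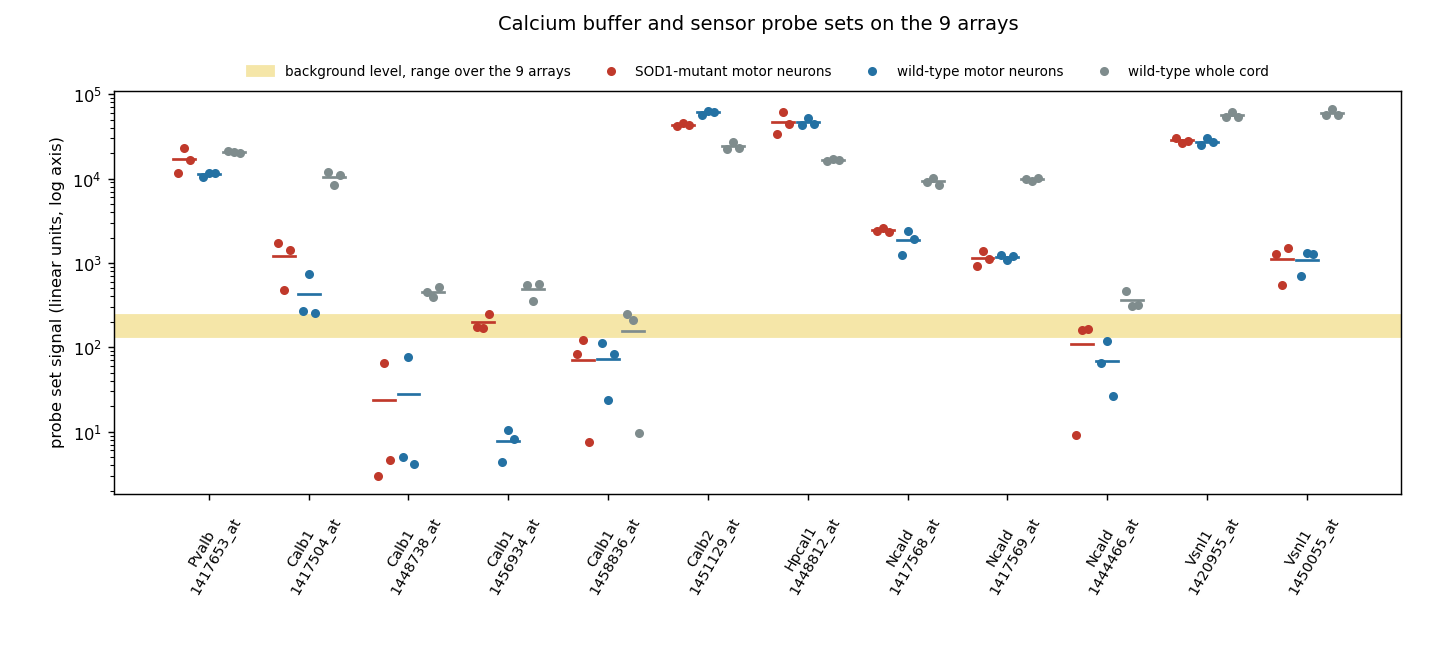
Signal of the 12 probe sets of Pvalb, Calb1, Calb2, Hpcal1, Ncald and Vsnl1 on a log axis in linear signal units, with a point for each array, a short line for the mean of 3 arrays and a band for the background level (131 to 244 over the 9 arrays). Calb2 and Hpcal1 lay above cord in all captured arrays, and the Calb1, Ncald and Vsnl1 probe sets below it, except Calb1 1458836_at, whose groups overlapped.

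Wild-type motor neurons were first set against wild-type whole cord, which asks how the signal of captured cells differs from that of the tissue around them. In a mixed tissue, fewer cells of a type and less RNA per cell cannot be told apart. Transcripts of Calb2 and Hpcal1 were higher in wild-type motor neurons, by 2.50-fold and 2.81-fold. Those of Calb1, Ncald, Vsnl1 and Pvalb were lower, by 26.4-fold for Calb1 and 1.82-fold for Pvalb, while Vsnl1 ranged from 2.08-fold to 55.7-fold with the probe set. Of the 12 probe sets, 8 lay above the filter on dim values and were tested. With limma on log2 values, 2 were called higher and 6 lower at an adjusted p under 0.05, where 24% of all 27022 probe sets tested were called higher and 41.5% lower. The split of all calls depended on the scaling: 6494 probe sets were higher and 11206 lower in the deposited scaling, 9647 and 7693 after quantile normalization, and 12942 and 5269 after centring each array on its median. Calls were thus common on the whole array, and the filter keeps a dim gene that is bright in 1 group.

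Pvalb, read by 1417653_at, had signals of 11594, 22772 and 16586 in SOD1-mutant motor neurons, 10397, 11711 and 11758 in wild-type motor neurons and 21030.4, 20757 and 19837 in cord. The 3 wild-type motor neuron arrays lay close together and below every cord array, whereas the mutant arrays spread from the wild-type motor neuron level to above cord. Wild-type motor neurons were lower than cord by a log2 fold change of -0.86 ± 0.083 (SE, limma adjusted p = 2.61e-05). This call rested on the scaling, since the change was -1.15 after quantile normalization and 0.043 (adjusted p = 0.687) after centring each array on its median.

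Calb1 was read by 4 probe sets, of which only 1417504_at was tested. Its signals were 1741, 476 and 1429 in SOD1-mutant motor neurons, 266, 749 and 252 in wild-type motor neurons and 11911, 8330.1 and 11010.1 in cord. Every captured array lay far below every cord array, and the arrays of the mutant and wild-type motor neurons overlapped. The log2 fold change of wild-type motor neurons against cord was -4.72 ± 0.37 (SE, limma adjusted p = 8.32e-06). It was -3.81 after centring, so the direction held under that scaling. On the arrays of wild-type motor neurons the other 3 probe sets did not reach the background level. For 1448738_at, cord arrays had signals of 399 to 513, and wild-type motor neurons were at least 2.98-fold lower. For 1456934_at, cord arrays had 353 to 562, and wild-type motor neurons were at least 3.12-fold lower. The dimmest, 1458836_at, was above background on 2 cord arrays and had 9.58 on the other, so it gives no bound that holds for the group. Inhibitory interneuron markers, a class in which calbindin occurs, fell as well. All 7 tested were called lower in wild-type motor neurons, where 36.1% of all genes were, with a summed signal of 19135 to 21996 against 81328 to 92341 in cord. Each of the 7 exceeded the background level on at least 1 array of wild-type motor neurons, and no marker was at 0. The fall was not particular to this class, since all 9 astrocyte and all 9 oligodendrocyte markers tested were also called lower. The part of these cell types in the Calb1 difference was not tested.

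Calb2, read by 1451129_at, went the opposite way to Calb1. It had signals of 41835, 44964 and 42829.9 in SOD1-mutant motor neurons, 56789, 63763 and 61863 in wild-type motor neurons and 22664, 27022 and 23264 in cord. The groups did not overlap: wild-type motor neurons were highest, mutant motor neurons lay between, and cord was lowest. Wild-type motor neurons were above cord by a log2 fold change of 1.32 ± 0.089 (SE, limma adjusted p = 3.30e-06). The rise was 0.89 after quantile normalization and 2.23 after centring, and passed in both. Markers of excitatory interneurons and the dorsal horn, where calretinin is also found, were read as well. In wild-type motor neurons 7 of 9 were called lower, where 36.1% of all genes were. Their summed signal was 9841 to 12281 in wild-type motor neurons against 66858 to 69333 in cord. Tac2 and Ebf2 did not reach background on any wild-type motor neuron array. The part of these cells in the Calb2 difference was not tested.

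Hpcal1, read by 1448812_at, was the sensor that rose. Its signals were 33347, 62273 and 43753 in SOD1-mutant motor neurons, 43196, 51636 and 43847 in wild-type motor neurons and 15982, 16858 and 16406 in cord. Every captured array was above every cord array, and the mutant arrays spanned the whole range of the wild-type ones. The log2 fold change of wild-type motor neurons against cord was 1.49 ± 0.087 (SE, limma adjusted p = 1.54e-06). It was 1.14 after quantile normalization and 2.40 after centring.

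Ncald fell on both of its tested probe sets. On 1417568_at the signals were 2419, 2622 and 2349 in SOD1-mutant motor neurons, 1252, 2420.0 and 1912 in wild-type motor neurons and 9209, 10129 and 8489.8 in cord. On 1417569_at they were 915, 1373 and 1098 in SOD1-mutant motor neurons, 1253, 1088 and 1212 in wild-type motor neurons and 9883, 9294 and 10156 in cord. Captured arrays were below all cord arrays on both, and mutant and wild-type motor neurons overlapped on both. The log2 fold changes of wild-type motor neurons against cord were -2.35 ± 0.22 and -3.03 ± 0.11 (SE, limma adjusted p = 2.12e-05 and 2.54e-07). After centring they were -1.44 and -2.12, both still called. The dim 1444466_at had 305 to 458 in cord and lay below background on all 6 captured arrays, at least 2.35-fold lower in wild-type motor neurons.

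Vsnl1 was read by 2 probe sets annotated to the same source transcript, and they differed in the size of the fall. On 1420955_at the signals were 30534, 26490.3 and 27903 in SOD1-mutant motor neurons, 24717, 29929.7 and 26886 in wild-type motor neurons and 53866, 61623 and 54362 in cord. On 1450055_at they were 1259, 549 and 1505 in SOD1-mutant motor neurons, 701, 1306 and 1262 in wild-type motor neurons and 57107, 66147 and 55948 in cord. Captured arrays lay below cord on both probe sets without overlap, modestly on the first and by more than an order of magnitude on the second. The log2 fold changes of wild-type motor neurons against cord were -1.06 ± 0.093 and -5.80 ± 0.22 (SE, limma adjusted p = 1.51e-05 and 2.53e-07). After centring, the first was -0.15 and no longer called (adjusted p = 0.191), while the second was -4.89 and called.

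The disagreement between probe sets of one gene was measured as the log2 ratio of the first to the second on each array. For Vsnl1 it was 4.58, 5.54 and 4.19 in SOD1-mutant motor neurons, 5.10, 4.50 and 4.39 in wild-type motor neurons and -0.084, -0.10 and -0.041 in cord. The ratio was thus large on every captured array and near 0 on every cord array. Wild-type motor neurons differed from cord by 4.74 (two-sided exact permutation test, p = 0.1, adjusted over 6 tests 0.2), and 0.1 is the smallest p that 3 arrays against 3 allow. For Ncald the ratio was 1.38, 0.92 and 1.08 in SOD1-mutant motor neurons, -0.0011, 1.14 and 0.65 in wild-type motor neurons and -0.10, 0.12 and -0.26 in cord. Its difference between wild-type motor neurons and cord was 0.67 (two-sided exact permutation test, p = 0.2, adjusted 0.3). The Vsnl1 ratio had about the size of the 3′ to 5′ ratios of Gapdh and Actb on the same arrays. Where each probe set lies along its transcript was not read here, and the link between these ratios was not tested. How much Vsnl1 mRNA differed between motor neurons and cord therefore depends on the probe set, although both were lower.

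**Figure D2:**
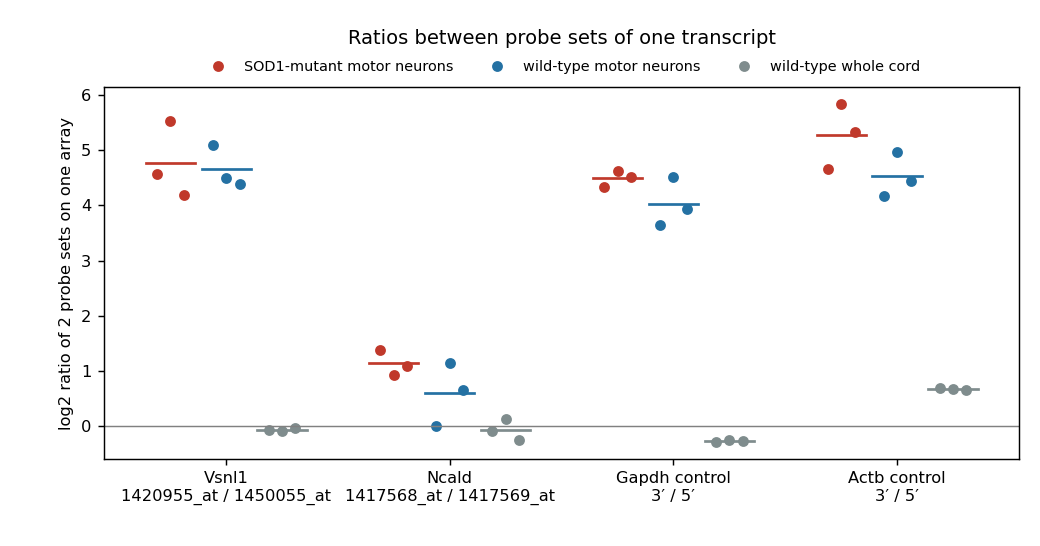
Log2 ratio of 2 probe sets of one transcript on each array (vertical axis) for Vsnl1, Ncald and the Gapdh and Actb control transcripts, with a point for each array and a line for the mean of 3 arrays. For Vsnl1 the captured arrays lay between 4.19 and 5.54 and cord arrays between -0.10 and -0.041, while for Ncald the captured arrays lay between -0.0011 and 1.38.

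SOD1-mutant motor neurons were then set against wild-type motor neurons, to ask whether the calcium-binding genes differ with genotype in the same captured cell class. With limma none of the 8 tested probe sets was called, where 0.152% of all probe sets tested were called higher and 0.0703% lower. At an unadjusted p of 0.05, 3 of the 8 passed, Calb2, Calb1 and Pvalb, against 15.2% of all probe sets tested. The 3 buffers thus had smaller p-values than the 3 sensors, but no call was made at the adjusted threshold.

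Calb2 was the one with the smallest p. It was lower in all 3 mutant arrays than in all 3 wild-type motor neuron arrays, with means of 43209.5 ± 1599 and 60805 ± 3605 (SD, n = 3 each) and a log2 fold change of -0.49 ± 0.11 (SE, limma adjusted p = 0.109, 95% interval -0.74 to -0.24). It became a call when all 9 arrays shared a fit (adjusted p = 0.0238) or with the replicate number as a block (adjusted p = 0.0397). Calb1 on 1417504_at averaged 1215 ± 659 in SOD1-mutant and 422 ± 283 in wild-type motor neurons (SD, n = 3 each), with overlapping arrays and a log2 fold change of 1.47 ± 0.54 (SE, limma adjusted p = 0.240, interval 0.28 to 2.66). Pvalb averaged 16984 ± 5599.7 in SOD1-mutant and 11289 ± 772 in wild-type motor neurons (SD, n = 3 each), a log2 fold change of 0.54 ± 0.22 (SE, limma adjusted p = 0.279, interval 0.058 to 1.02). Its highest value, 22772 on mutant replicate 2, raised that mean. Without this array the log2 fold change was 0.30, and without mutant replicate 1 it was 0.78.

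The dim Calb1 probe set 1456934_at was not tested. Its signals were 172, 168 and 251 in SOD1-mutant motor neurons, 4.35, 10.5 and 8.27 in wild-type motor neurons and 546, 353 and 562 in cord. Mutant arrays lay between the other two groups without overlap, yet only 2 of them were above their background level, so no fold is given. The background level itself was higher on mutant arrays, at 157 to 244, than on wild-type motor neuron arrays, at 131 to 147. Without a filter on dim values, limma gave an adjusted p of 0.0932. The dim 1448738_at and 1458836_at were below background on all captured arrays of both genotypes.

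The sensors showed intervals around 0. The log2 fold change of SOD1-mutant against wild-type motor neurons was -0.035 for Hpcal1 (95% interval -0.48 to 0.41, limma adjusted p = 0.953). On Vsnl1 1420955_at it was 0.061 (interval -0.23 to 0.35, limma adjusted p = 0.859), and on 1450055_at -0.048 (interval -0.92 to 0.83, adjusted p = 0.969). On Ncald it was 0.45 (interval -0.11 to 1.01, limma adjusted p = 0.427) for 1417568_at and -0.085 (interval -0.63 to 0.46, adjusted p = 0.901) for 1417569_at. The interval was narrowest for Vsnl1 1420955_at and widest for Vsnl1 1450055_at.

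Markers of other cell types were read in the same arrays. The summed signal of 9 astrocyte markers was 116394 to 124484 in SOD1-mutant and 84783 to 98840 in wild-type motor neurons, with 1 of the 9 called higher, where 0.169% of all genes were called higher and 0.0847% lower. That of 9 oligodendrocyte markers was 320750 to 335628 in SOD1-mutant and 262448 to 280061 in wild-type motor neurons, with none called. The 7 inhibitory interneuron markers summed to 17154 to 26910 and 19135 to 21996 in the same groups, which overlap, with none called. In none of these 3 lists was a marker below background on all mutant arrays. The 8 microglial markers summed to 4278 to 5525 in SOD1-mutant and 3556 to 3830 in wild-type motor neurons, with none called. The 9 excitatory interneuron and dorsal horn markers summed to 10574 to 13413 and 9841 to 12281, which overlap, with none called. Aif1 of the microglial list and Zic1, Tac2 and Ebf2 of the excitatory list were below background on all mutant arrays. The median log2 fold change between the genotypes was 0.88 for the astrocyte, 0.17 for the oligodendrocyte and 0.25 for the microglial markers. It was -0.046 for the inhibitory interneuron markers and 0.040 for the excitatory interneuron and dorsal horn markers. The part of these cell types in the differences of Calb1, Calb2 and Pvalb was not tested.

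**Figure D3:**
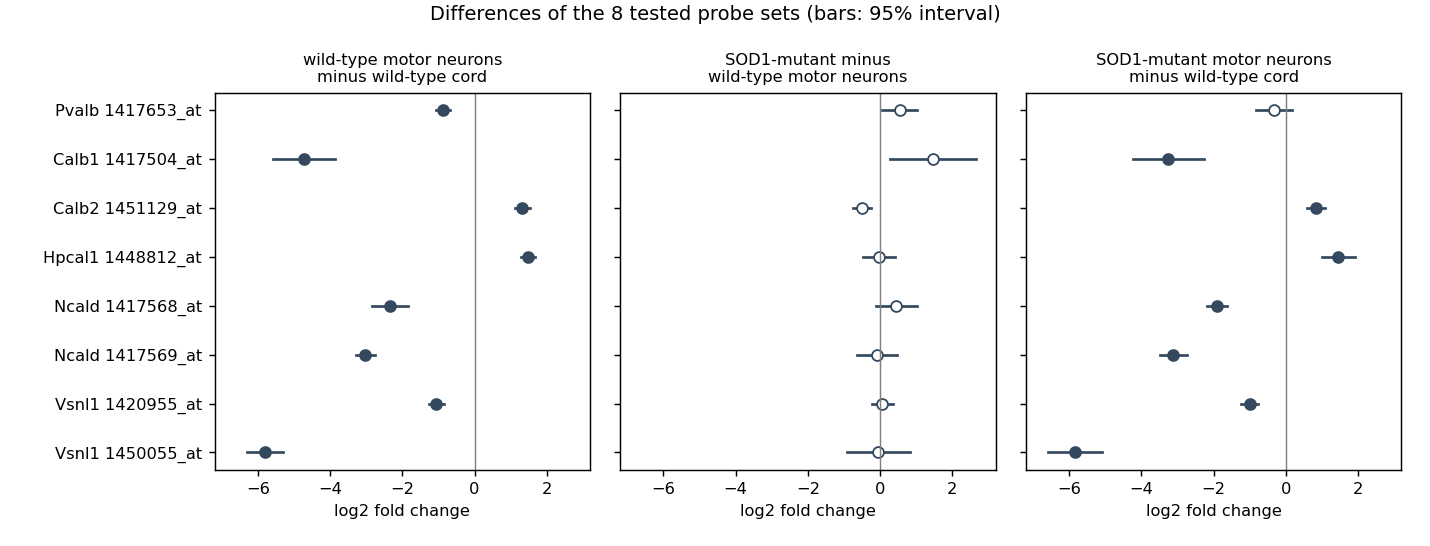
Log2 fold change (horizontal axis) of the 8 tested probe sets in 3 comparisons, with 95% intervals from limma, filled points where the adjusted p was under 0.05 and open points elsewhere. Calb2 and Hpcal1 lay above 0 against cord in both genotypes, and no probe set was filled between the genotypes.

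SOD1-mutant motor neurons were also set against wild-type cord, a contrast that joins genotype and capture and shares its cord arrays with the first one. It called 2 of the 8 tested probe sets higher and 5 lower, where 21.9% of all probe sets were called higher and 40.2% lower. All calls numbered 5925 higher and 10859 lower in the deposited scaling, 8997 and 7371 after quantile normalization, and 11599 and 5157 after centring. Calb2 and Hpcal1 were higher, with log2 fold changes of 0.83 ± 0.10 and 1.45 ± 0.20 (SE, limma adjusted p = 0.000190 and 0.000343). Calb2 had 0.36 after quantile normalization and 1.68 after centring. Calb1 was lower by -3.25 ± 0.43 (SE, limma adjusted p = 0.000247). The 2 Ncald probe sets had -1.90 ± 0.12 and -3.11 ± 0.17 and the 2 of Vsnl1 -0.999 ± 0.10 and -5.85 ± 0.32 (SE), all 4 called. After centring, Vsnl1 1420955_at had -0.15 and was not called (adjusted p = 0.450). Pvalb was the exception, with -0.33 ± 0.22 (SE, limma adjusted p = 0.215). It was called lower after quantile normalization (-0.67, adjusted p = 0.0215) or without mutant replicate 2 (-0.57, adjusted p = 0.0116), was -0.079 without mutant replicate 1, and was called higher after centring (0.52, adjusted p = 0.0250).

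Across the 3 groups, the order of levels in the deposited scaling fell into 4 forms. Calb2 was highest in wild-type motor neurons, then in SOD1-mutant motor neurons, then in cord, and the first pair of neighbours did not pass the test. Hpcal1 was higher in both kinds of motor neurons than in cord, and the motor neurons did not pass against each other. Calb1, Ncald and Vsnl1 were highest in cord, with the motor neurons of both genotypes not passing against each other. In Pvalb, which had the order cord, mutant, wild-type, neither pair of neighbours passed and only the ends did.

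Likeness of pattern was described by Pearson's r of log2 values over the 9 arrays, which fall into cord and captured arrays, the latter sharing the high 3′ to 5′ ratios of Gapdh and Actb. Among the members, each by its brightest probe set, Vsnl1 was closest to Ncald (r = 0.978) and Calb1 to Ncald (0.942), while Calb2 was closest to Hpcal1 (0.904). Calb1 and Calb2 ran opposite (-0.949), as did Hpcal1 and Vsnl1 (-0.947). Pvalb was less close to the rest, with r of -0.760 to Calb2, 0.758 to Ncald, 0.645 to Calb1, 0.631 to Vsnl1 and -0.475 to Hpcal1. Of all genes, Dyrk2 (0.988) and Hmgn1 (0.981) were nearest to Pvalb, 9630013A20Rik (0.991) and Kmt2e (0.991) to Calb1, and Pafah1b3 (0.994) and Rexo4 (0.994) to Calb2. Sdhaf4 (0.995) and Rpn1 (0.994) were nearest to Hpcal1, Hepacam (0.997) and Tmem163 (0.996) to Ncald, and Ywhae (0.995) and Cavin2 (0.993) to Vsnl1.

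Other genes of calcium binding, and calmodulin targets and regulators, were read from 6 lists with 96 genes. Each gene was read by its brightest tested probe set, so a dependence on the probe set, as seen for Vsnl1, was not examined. Of these, 86 had a probe set of their own and 73 were tested. In wild-type motor neurons against cord, 17 were called higher and 42 lower, where 31.1% of all 12983 genes were called higher and 36.1% lower, with a median log2 fold change of -0.55 against -0.096 over all genes. The split turned with the scaling, to 33 higher and 27 lower after centring, where 57.8% of all genes were called higher and 15.3% lower. It was 16 and 44 after quantile normalization, where 42% and 26.3% of all genes were.

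The list of other neuronal calcium sensors also takes in further EF-hand proteins, such as Tesc. Of its 10 tested genes, 1 (Tesc) rose and 6 fell (median -1.50), and after centring 4 rose and 5 fell. Hpcal4, another visinin-like protein, had signals of 527, 289 and 388 in SOD1-mutant motor neurons, 244, 18.5 and 95.3 in wild-type motor neurons and 8214, 8482 and 8308 in cord. Only 1 of 3 wild-type motor neuron arrays was above background. With values below background raised to that level, Hpcal4 was 45.0-fold lower in wild-type motor neurons than in cord (log2 fold change -5.49, limma adjusted p = 1.57e-07). Kcnip2, a partner of A-type potassium channels, was below background on those arrays and at least 12.2-fold lower. Tesc (tescalcin, an EF-hand partner of sodium-proton exchangers) had 67599.9, 96314 and 93489.5 in SOD1-mutant motor neurons, 86103, 100353 and 94225 in wild-type motor neurons and 7256, 7143 and 6589 in cord. It was 13.3-fold higher in wild-type motor neurons than in cord (log2 fold change 3.74 ± 0.084, SE, limma adjusted p = 4.38e-08). Tesc and Hpcal4 kept their direction in both other scalings.

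Of 9 S100 proteins tested, 1 rose and 7 fell (median -2.64), with 2 and 6 after centring. S100a10, a partner of annexin A2 that has lost calcium binding, was 9.01-fold higher in wild-type motor neurons than in cord. S100a6 (calcyclin) was 46.8-fold lower, and S100a9, a subunit of the myeloid protein calprotectin, did not reach background on any of these arrays and was at least 23.3-fold lower. All 8 microglial markers tested were called lower in wild-type motor neurons, where 36.1% of all genes were. Their summed signal was 3556 to 3830 in those neurons against 47368 to 51165 in cord. C1qc and Aif1 did not reach background on any array of the neurons. Astrocyte, oligodendrocyte and interneuron markers were mostly called lower too. The part of microglial or other transcripts in the S100 differences was not tested.

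Of 4 genes of the calmodulin and calmodulin-like list tested, 1 rose and 2 fell (median -0.11), with 3 and 1 after centring. Cetn4, a centrin, was 4.18-fold higher in wild-type motor neurons than in cord. Calml4, above background on 1 wild-type motor neuron array, was 4.36-fold lower with values raised to background, and Cetn2 had a log2 fold change of -0.28 that turned to 0.62 after centring. The other EF-hand proteins split into 6 higher and 11 lower of 19 (median -0.39), and into 9 and 7 after centring. Necab3 and the secretory-cell sensor Scgn (secretagogin) were 2.76-fold and 2.19-fold higher. The mitochondrial protein gene Efhd1 was 5.36-fold lower and the endoplasmic reticulum gene Rcn3 9.25-fold lower, the last with values raised to background and 2 of 3 wild-type motor neuron arrays above it. These 4 kept their direction after centring and after quantile normalization.

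Of 6 genes of calcium storage inside the endoplasmic reticulum, 2 rose and 4 fell (median -0.52), with 3 and 0 after centring. The chaperone Hspa5 and the calcium store protein Calr were 2.32-fold and 1.71-fold higher in wild-type motor neurons than in cord in the deposited scaling, and higher in the other scalings. The calsequestrins Casq1 and Casq2 were 2.37-fold and 2.69-fold lower, and neither was called after centring or quantile normalization. Of 25 calmodulin targets and regulators, 6 rose and 12 fell (median -0.47), with 12 and 8 after centring. The kinase gene Camk2a was 26.7-fold lower and Nrgn (neurogranin, which holds calmodulin at low calcium) 7.11-fold lower with values raised to background in the same way, each being above it on 1 of 3 wild-type motor neuron arrays. Pde1a and Pde1c, calmodulin-dependent phosphodiesterases, were 4.12-fold and 3.09-fold higher, and these 4 kept their direction in both other scalings.

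**Figure D4:**
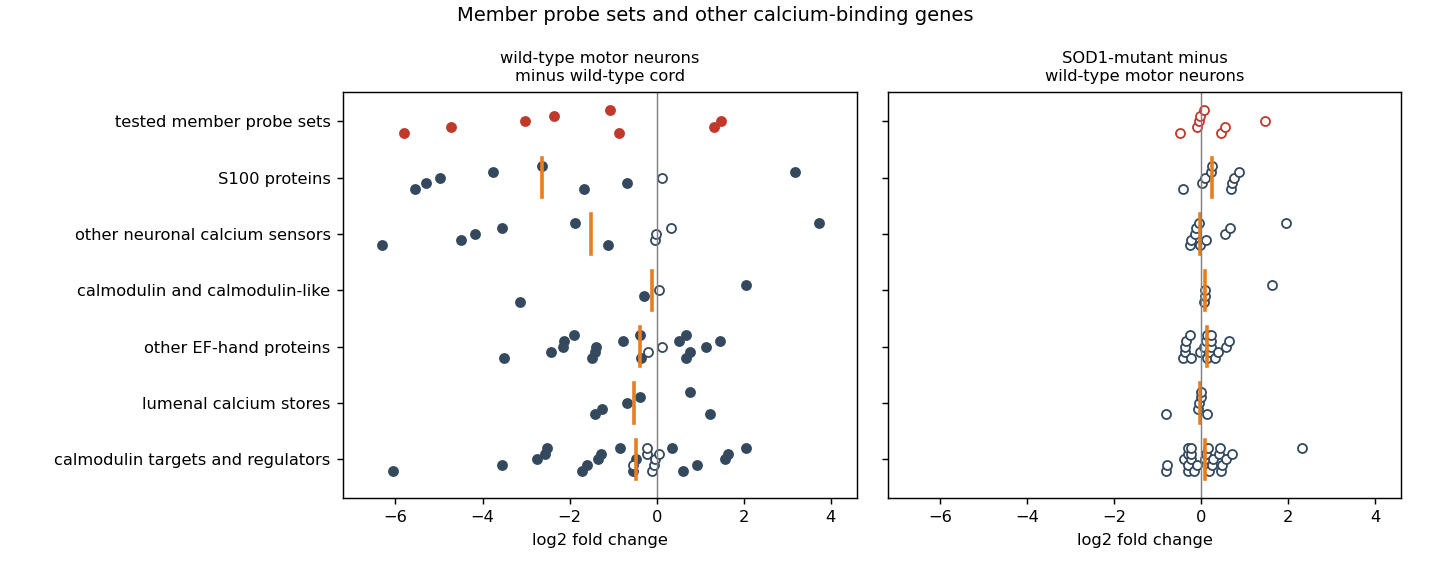
Log2 fold change (horizontal axis) of the 8 tested member probe sets (red) and of 73 other genes in 6 lists (dark). The lists hold genes of calcium binding, and calmodulin targets and regulators. Panels show wild-type motor neurons minus wild-type cord and SOD1-mutant minus wild-type motor neurons. Points are filled where the limma adjusted p was under 0.05, and an orange line marks each list's median. Filled points lay on both sides of 0 against cord, and there were none between the genotypes.

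Between the genotypes, limma called none of these 73 genes, and 11 passed an unadjusted p of 0.05, against 16.8% of all genes. Their median log2 fold change was 0.089, against -0.0051 over all genes. Pde1a had the smallest p (log2 fold change -0.81 ± 0.19, SE, limma adjusted p = 0.116). Next came Ppp3r1 (0.48, limma adjusted p = 0.136), S100a1 (0.74, adjusted p = 0.138) and Ppp3cb (0.40, adjusted p = 0.174). Hpcal4 had 1.96 ± 0.72 (SE, limma adjusted p = 0.240), or 1.15 with values raised to background (adjusted p = 0.166), since only 1 wild-type motor neuron array was above background. All of these genes were singled out for this comparison after their values were seen. Against cord, SOD1-mutant motor neurons had 18 of the 73 called higher and 39 lower, where 28.4% and 35.3% of all genes were. After centring, 29 were higher and 22 lower, where 51.9% and 14.5% of all genes were. In that comparison Tesc was 12.1-fold higher and Hpcal4 20.3-fold lower. Camk1d, a calmodulin-dependent kinase, was 3.56-fold higher, S100a8, which pairs with S100a9, at least 15.3-fold lower and Necab2 4.42-fold lower.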

How the data were processed

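Per the labels, RNA of 9 samples was measured. Group names rest on the sample descriptions, and replicate numbers on the titles. Values used are linear signal intensity per probe set, as deposited by the authors, who had scaled every array to a trimmed mean of 2500 (2% of probe sets taken off each end). No source used here names the software behind these intensity values. Gene names came from the platform annotation, where 34945 probe sets carry 1 gene, 932 carry several and 9160 carry none. 64 control probe sets were left out.

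Tests used log2(value + 20.3), the pseudocount being the 10th percentile over the arrays, and this scale understates the fold change of a dim probe set. Probe sets above the 40th percentile of the mean over the 3 groups were tested, 27022 in all. Each comparison was fitted on its 6 arrays with limma 3.58.1 in R 4.3.3 (intensity trend, two-sided, Benjamini-Hochberg over all probe sets tested, threshold 0.05). Background per array was the 95th percentile of 27 Bacillus subtilis control probe sets. A group with no array above it has only a bound, and its fold is given as at least N-fold against that level, with the pseudocount added. The fit was tested on simulated data. 3 arrays per group limit the precision.

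All probe sets of the members were described. Of the other genes, up to 2 rises and 2 falls per list and comparison, called and without overlap between groups, were chosen for naming, and for each member the 2 genes of highest r. The members and lists were chosen with earlier results of these data known. The alternatives were other scalings, filters, pseudocounts and variance models, array weights, values raised to background, a replicate block, and leaving out each array. The replicate numbers were checked for pairing and were not used to pair samples in the main fit. Python 3.11.15 and matplotlib 3.10.9 drew the figures.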

Additional observations from a re-analysis of the deposited data

How the results depend on the processing

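In wild-type motor neurons against cord, 2 member probe sets higher and 6 lower were called in the deposited scaling, and leaving out each array gave 2 and 6 each time. Pvalb turned to 0.043 after centring, and Vsnl1 1420955_at was not called there. The other genes of the 6 lists had 33 higher and 27 lower after centring, and 15 to 18 higher and 41 to 44 lower without single arrays. Against cord, SOD1-mutant motor neurons had 2 higher and 5 to 6 lower without single arrays. Pvalb turned to 0.52 after centring. The other genes had 29 higher and 22 lower after centring, and 15 to 19 and 35 to 43 without single arrays. The median of all probe sets moved from -0.35 to 0.56 with centring and 0.13 with quantile normalization in the first comparison, and from -0.37 to 0.48 and 0.12 in the last.

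Between the genotypes, 0 member probe sets were called in either direction without each array in turn, and 0 of the other genes. All 9 arrays in 1 fit gave 1 member lower (Calb2) and 3 other genes higher. The replicate block gave 1 member lower (Calb2), and 1 other gene higher and 2 lower. Array weights gave 3 members higher (Pvalb, Calb1 and Ncald 1417568_at) and 1 lower (Calb2), with 19 other genes higher and 16 lower. They put a weight of 10.8 on wild-type replicate 3 and 5.47 on mutant replicate 3, with all others at 0.28 to 0.43, so those calls rest mostly on 1 array a genotype. Signs of differences near 0 turned: Vsnl1 1450055_at was 0.20 with array weights and -0.33 to 0.38 without single arrays, Hpcal1 -0.27 to 0.18, Ncald 1417569_at -0.23 to 0.054 and Vsnl1 1420955_at -0.0054 to 0.13. None of these was called. Over all probe sets, 41 were called higher and 19 lower between the genotypes, against 572 and 612 with all 9 arrays in 1 fit, 226 and 217 with the block, 6250 and 7527 with array weights, and 3 and 0 without the intensity trend. Without a filter, 9 and 7 member probe sets were lower against cord in wild-type and mutant motor neurons, from 12 tested. No other call on the 8 tested members changed in these alternatives, except that Pvalb in SOD1-mutant motor neurons against cord was called lower with quantile normalization (-0.67), array weights (-0.30) and without mutant replicate 2 (-0.57), and that Vsnl1 1420955_at was not called there after centring. The cause was not tested.

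Deviations of arrays from their group means were correlated between groups. Between the motor neuron genotypes, r was 0.0023 to 0.17 for same-numbered arrays and -0.18 to 0.063 for differently numbered ones. Between wild-type motor neurons and cord it was -0.0035 to 0.031 and -0.022 to 0.019. Between mutant motor neurons and cord it was -0.043 to 0.017 and -0.037 to 0.051. The numbers were not taken to pair arrays in the main fit, but pairing of some motor neuron arrays is not excluded. With the block, member counts against cord were 2 and 6 in wild-type and 2 and 5 in mutant motor neurons. Signals near the background level, as for the dim Calb1 and Ncald probe sets, limit what the arrays can show.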
